A study of Mus musculus with 6 samples.

Results

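The 32 genes described here form the signalling machinery under the activating receptors of natural killer (NK) cells. They were taken as a list of named genes, and every probe set that carries 1 of these names was read. Of the 32, 31 had at least 1 probe set, 73 probe sets in all, of the 18193 genes and 45037 probe sets left after array controls were removed. No probe set in the annotation used is named Lck, and this Src family kinase was not analysed here.

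The NK cells came from the spleens of RAG-/- mice, which lack mature T and B cells because antigen receptor genes cannot be rearranged. Cells that carried NK1.1 were sorted by flow cytometry on 2 further markers. The subset with CD27 but no CD11b (CD27+CD11b-), the double-positive subset (CD27+CD11b+) and the subset left with CD11b (CD27-CD11b+) are commonly read in that order as stages of maturation. Each subset was measured on 2 Affymetrix mouse expression arrays, 6 in all. All 3 subsets share the RAG-/- genotype and no treatment is given, nor are the age of the mice or the number of animals pooled, so p-values measure the spread between samples, which may be technical.

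Activating NK receptors have short tails and no enzyme of their own, and they signal through partner chains that sit beside them in the membrane. Fcer1g, Tyrobp (DAP12) and Cd247 (CD3 zeta) carry paired tyrosine motifs that recruit the kinases Syk and Zap70 once Src family kinases such as Fyn have phosphorylated them, whereas Hcst (DAP10) recruits phosphoinositide 3-kinase and Grb2 with Vav1. The scaffolds Lat, Lat2 and Lcp2 then gather phospholipase C gamma, Vav and Ras exchange factors, from which calcium, diacylglycerol, Ras and actin signals run to granule release and cytokine genes. Phosphatases, Cbl ubiquitin ligases and Dok adaptors dampen the same steps.

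Values are log2 expression values made with RMA, and each gene is read from its brightest probe set. An RMA value depends on the probes, so levels are compared between subsets and genes are not ranked by level. The choice of the brightest probe set and the background level given next do set different probes side by side, and are rough guides only. A gene was called where its difference passed an adjusted p of 0.05 in limma over all 18193 genes, and a level of 6.46, the 95th percentile of 37 genes of other tissues, served as background. By that level 30 of the 31 genes were above background in at least 1 subset, and the means of Plcg1 were under it in all 3. Bulk arrays cannot tell fewer cells of a type from less RNA per cell.

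The sorting markers followed the titles: Itgam (CD11b) read 6.37 and 5.88 in CD27+CD11b-, 8.69 and 8.01 in CD27+CD11b+, and 9.93 and 9.44 in CD27-CD11b+, and Cd27 fell to 6.96 and 6.47 in CD27-CD11b+, against 8.78 and 8.03 in CD27+CD11b-. The sort note of CD27-CD11b+ replicate 1 names the CD27+CD11b- gate. Its title decided its group here, and the called genes of the list were also followed without it. Called genes outside the list are given from all 6 arrays only. All 10 NK cell markers were above background on all 6 arrays, and their median difference between CD27-CD11b+ and CD27+CD11b- was 0.51, with 2 of 10 called higher. Across the subsets, 3 unnamed probe sets divided the arrays into on arrays (replicate 2 of CD27+CD11b- and of CD27+CD11b+, and replicate 1 of CD27-CD11b+) and off arrays, 1 of each subset on either side. Monocyte and macrophage transcripts moved with this division: a list of 14 of them averaged 7.17, 7.50 and 7.44 in the on arrays and 5.80, 6.63 and 6.44 in the off arrays of the 3 subsets in stage order. The main results are therefore also given within each side of it. The macrophage list was not level within a side. Its median difference between CD27-CD11b+ and CD27+CD11b- was 0.83 within the off arrays and 0.21 within the on arrays. Over all 6 arrays it was 0.33, with 10 of the 14 genes higher, 4 lower and 0 called. Values within a side therefore do not set these transcripts aside.

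The signalling genes differed most clearly between the ends of the series, CD27-CD11b+ against CD27+CD11b-. There 4 of 31 genes were called: Fcer1g, Txk and Rasgrp2 rose and Rasgrp1 fell. That is 12.9% of the genes, against 3.39% of all genes and 6.19% of genes above background called in this comparison. The count rests on single arrays: it fell when any 1 array of CD27-CD11b+ or CD27+CD11b- was left out, and so did the count over all genes. By direction, 3 were called higher, where 2.24% of all genes were, and 1 lower, where 1.15% were. Without a threshold, the arrays of CD27-CD11b+ lay wholly above those of CD27+CD11b- for 21 of 31 genes and wholly below them for 7, and overlapped only for Lcp2, Sh3bp2 and Ptpn6. The background for these counts was high: 26.9% of all genes lay wholly above and 24.3% wholly below, and among genes above background 44.3% and 15.8%. The median difference was 0.31 over the 31 genes, against -0.01 over all genes and 0.16 over genes above background.

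**Figure D1:**
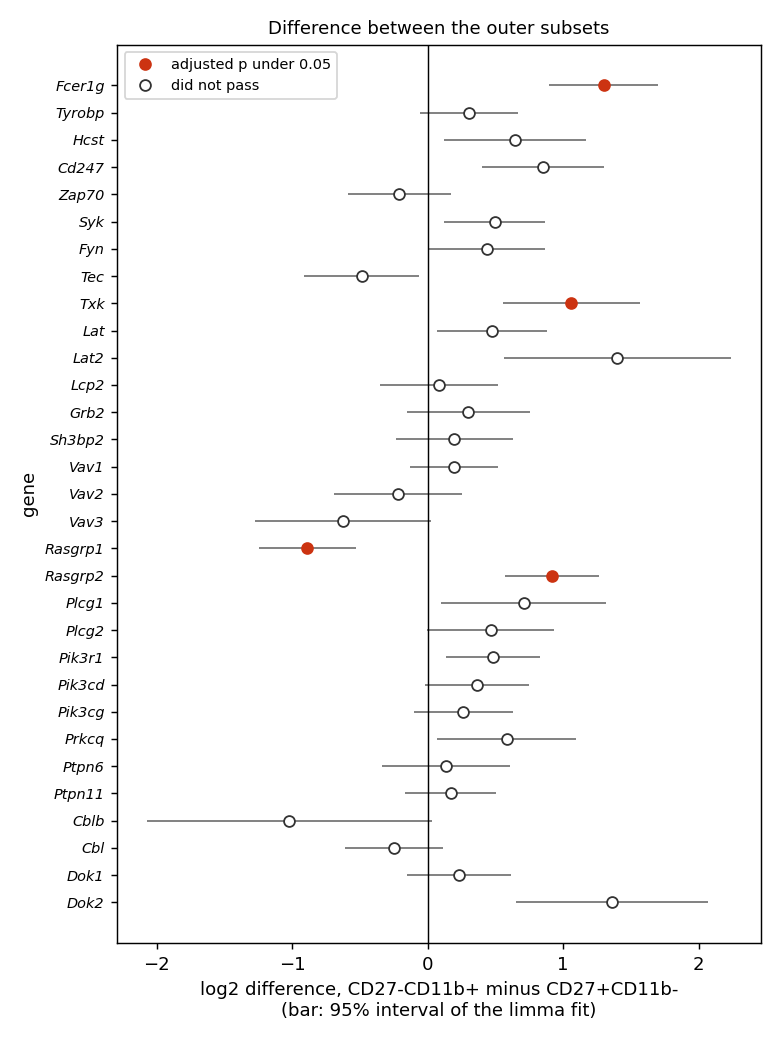
Log2 difference of CD27-CD11b+ minus CD27+CD11b- (horizontal axis) for the 31 measured genes, ordered by role, with the 95% interval of the limma fit over all 6 arrays, 2 per subset. Filled points passed an adjusted p of 0.05 over all genes: Fcer1g at 1.30, Txk at 1.06 and Rasgrp2 at 0.92 lie to the right, and Rasgrp1 at -0.89 to the left.

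Among the partner chains, Fcer1g, the common Fc receptor gamma chain through which CD16 and NKp46 signal, changed most. It read 10.59 and 10.54 in CD27+CD11b-, 11.57 and 11.34 in CD27+CD11b+, and 12.03 and 11.69 in CD27-CD11b+. The subsets did not overlap at either step. Its mean was 11.86 ± 0.24 in CD27-CD11b+ and 10.56 ± 0.04 in CD27+CD11b- (SD, n = 2 arrays each), a 2.46-fold rise (log2 difference 1.30, SE 0.17, limma adjusted p = 0.00957). It was also the only 1 of the 31 genes that passed the F test over the 3 subsets (adjusted p = 0.0279, limma), which 1.35% of all genes passed. Macrophages make this chain too, so the division of the arrays bears on it. Within the off arrays the difference was 1.10 and within the on arrays 1.50. The on array minus the off array was -0.05, -0.23 and 0.35 for Fcer1g in stage order, while the macrophage list was higher on the on array of every subset. In CD27-CD11b+ both moved together, and replicate 1 is the on array there. Without CD27-CD11b+ replicate 1 the difference was 1.13 and no longer passed (limma adjusted p = 0.0898).

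Cd247, the CD3 zeta chain, read 9.44 and 9.03 in CD27+CD11b-, 9.98 and 9.74 in CD27+CD11b+, and 10.23 and 9.94 in CD27-CD11b+. Both later subsets lay above the first. The outer difference of 0.85 (SE 0.20, 95% interval 0.40 to 1.30) missed the threshold (limma adjusted p = 0.06), and a second probe set above background differed by 0.92. Hcst, which couples NKG2D to phosphoinositide 3-kinase, read 9.19 and 8.95 in CD27+CD11b-, 9.55 and 9.06 in CD27+CD11b+, and 9.94 and 9.48 in CD27-CD11b+. Its outer difference of 0.64 had a 95% interval of 0.12 to 1.17 (limma adjusted p = 0.178), and only the outer subsets were clear of each other. Tyrobp, the partner of Ly49D, Ly49H and NKG2C among others, read 12.96 and 12.98 in CD27+CD11b-, 13.09 and 13.24 in CD27+CD11b+, and 13.40 and 13.15 in CD27-CD11b+. Its difference of 0.31 had an interval of -0.05 to 0.66 (limma adjusted p = 0.338), which holds 0. For all 4 chains the arrays of CD27-CD11b+ lay wholly above those of CD27+CD11b-, as they did for 44.3% of genes above background. The median difference of the 4 was 0.75, and 1 was called.

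**Figure D2:**
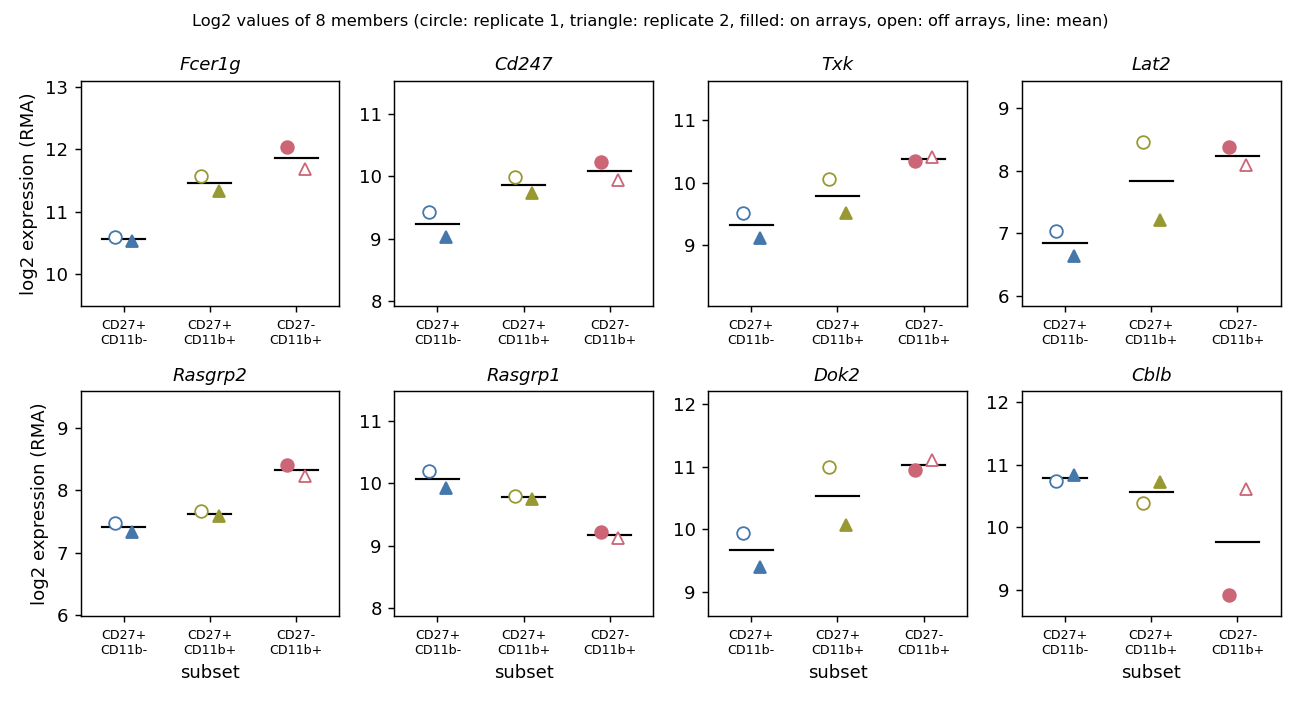
Log2 expression (vertical axes, all of equal span) of 8 signalling genes on each of the 6 arrays by subset, with replicate 1 as circles and replicate 2 as triangles, on arrays filled, off arrays open, and the mean of 2 arrays as a line. Fcer1g runs upward without overlap between subsets, Rasgrp1 runs downward, and the single low Cblb point is CD27-CD11b+ replicate 1 at 8.92.

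Of the 5 kinases measured, 1 was called. Txk, a Tec family kinase of T and NK cells, read 9.52 and 9.12 in CD27+CD11b-, 10.07 and 9.51 in CD27+CD11b+, and 10.36 and 10.41 in CD27-CD11b+. The last subset lay above both others, which themselves overlapped. Its mean was 10.38 ± 0.04 in CD27-CD11b+ and 9.32 ± 0.28 in CD27+CD11b- (SD, n = 2 arrays each), a 2.09-fold rise (log2 difference 1.06, SE 0.22, limma adjusted p = 0.0445). The call was close to the threshold: the difference was 0.89 within the off arrays and 1.23 within the on arrays, and limma adjusted p-values over the 6 fits that each left out 1 array ran between 0.0308 and 0.229, with the call lost without any 1 of the 4 arrays compared. The related kinase Tec pointed the other way, with averages of 9.80 ± 0.28 for CD27+CD11b- arrays, 9.53 ± 0.06 for CD27+CD11b+ arrays and 9.32 ± 0.18 for CD27-CD11b+ arrays (SD, n = 2 arrays each). The subsets of Tec did not overlap, but the outer difference of -0.49 did not pass (95% interval -0.91 to -0.06, limma adjusted p = 0.203).

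Zap70 and Syk, which bind the same paired tyrosine motifs, differed in sign on their brightest probe sets, and neither was called. Syk read 10.05 and 9.95 in CD27+CD11b-, 10.13 and 10.42 in CD27+CD11b+, and 10.56 and 10.42 in CD27-CD11b+. All arrays of both later subsets lay above the first subset, and the outer difference of 0.49 had an interval of 0.12 to 0.87 (limma adjusted p = 0.152). Zap70 read 10.19 and 10.22 in CD27+CD11b-, 10.03 and 10.08 in CD27+CD11b+, and 10.17 and 9.81 in CD27-CD11b+. Its outer difference was -0.21 (interval -0.59 to 0.17, limma adjusted p = 0.546), and its other 2 probe sets above background differed by 0.01 and -0.01. The name of the Zap70 probe set read here marks possible matches to other transcripts. Syk is also made by macrophages and B cells. The difference between the responses of the 2 kinases was not tested. Fyn, the Src family kinase that phosphorylates the receptor partners, read 11.71 and 11.57 in CD27+CD11b-, 12.05 and 11.84 in CD27+CD11b+, and 12.29 and 11.87 in CD27-CD11b+. Both later subsets lay above the first, with an outer difference of 0.44 that did not pass (interval 0.01 to 0.87, limma adjusted p = 0.254).

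None of the 5 scaffolds and adaptors was called, although Lat2 had the largest difference of all 31 genes. Lat2 (NTAL), a scaffold best known from B cells, mast cells and myeloid cells, read 7.04 and 6.63 in CD27+CD11b-, 8.46 and 7.21 in CD27+CD11b+, and 8.38 and 8.10 in CD27-CD11b+. The 2 arrays of CD27+CD11b+ stood 1.24 apart. The off array was the higher in CD27+CD11b- and CD27+CD11b+, against the order of the macrophage genes, and the on array in CD27-CD11b+, by 0.29, in their order. The outer difference was 1.40 (SE 0.36, interval 0.56 to 2.24, limma adjusted p = 0.0861), with 1.05 within the off arrays and 1.75 within the on arrays. Averaged over all its probe sets the difference was 0.65 (limma adjusted p = 0.0678). Leaving out either array of CD27+CD11b+, which removes that spread from the fit, gave an adjusted p of 0.0166 in limma. Lat, the corresponding scaffold of T cells and NK cells, read 8.86 and 8.64 in CD27+CD11b-, 8.88 and 8.55 in CD27+CD11b+, and 9.30 and 9.15 in CD27-CD11b+. Only CD27-CD11b+ stood apart for Lat, and neither the outer difference of 0.47 (interval 0.07 to 0.88, limma adjusted p = 0.194) nor the second step of 0.51 (limma adjusted p = 0.34) passed. Lcp2 (SLP-76), Grb2 and Sh3bp2 differed by 0.08, 0.30 and 0.20 in the outer comparison, with limma adjusted p-values between 0.47 and 0.859.

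The 2 Ras and Rap exchange factors moved in opposite directions. Rasgrp1, which loads Ras when diacylglycerol binds it, read 10.20 and 9.93 in CD27+CD11b-, 9.81 and 9.76 in CD27+CD11b+, and 9.22 and 9.13 in CD27-CD11b+. The subsets did not overlap at either step. Its mean was 9.18 ± 0.07 in CD27-CD11b+ and 10.06 ± 0.19 in CD27+CD11b- (SD, n = 2 arrays each), a 1.85-fold fall (log2 difference -0.89, SE 0.16, limma adjusted p = 0.0278). Rasgrp2 (CalDAG-GEFI), which activates Rap1 in response to calcium and so reaches integrins, read 7.48 and 7.33 in CD27+CD11b-, 7.66 and 7.58 in CD27+CD11b+, and 8.41 and 8.24 in CD27-CD11b+. Again no subset overlapped another. Its mean was 8.32 ± 0.12 in CD27-CD11b+ and 7.41 ± 0.11 in CD27+CD11b- (SD, n = 2 arrays each), a 1.89-fold rise (log2 difference 0.92, SE 0.15, limma adjusted p = 0.0217). The other 3 Rasgrp2 probe sets above background were also higher in CD27-CD11b+, by 0.29 to 0.59, and the name of the one read here marks possible matches to other transcripts. The other 3 Rasgrp1 probe sets were under background, with differences of -0.02, -0.20 and -0.13. With the mean of all probe sets per gene, neither gene passed: the difference was -0.31 for Rasgrp1 (limma adjusted p = 0.22) and 0.59 for Rasgrp2 (limma adjusted p = 0.0983). Within the off and on arrays the differences of the brightest probe sets were -1.07 and -0.71 for Rasgrp1 and 0.75 and 1.08 for Rasgrp2. Without CD27-CD11b+ replicate 1, limma adjusted p was 0.149 for Rasgrp1 and 0.163 for Rasgrp2, and both calls were also lost without CD27-CD11b+ replicate 2 or either array of CD27+CD11b- (adjusted p between 0.052 and 0.145).

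The Vav proteins, which act as exchange factors for Rac and are shared by most activating receptors, gave no call. Vav3 read 8.46 and 9.07 in CD27+CD11b-, 8.08 and 8.71 in CD27+CD11b+, and 8.35 and 7.94 in CD27-CD11b+. The on array was the higher in every subset, by 0.61, 0.63 and 0.42 in stage order, and the outer difference of -0.62 did not pass (interval -1.27 to 0.03, limma adjusted p = 0.282). It was -0.52 within the off arrays and -0.72 within the on arrays. Vav1 and Vav2 differed by 0.19 and -0.22, with intervals of -0.13 to 0.52 and -0.69 to 0.25.

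Among the enzymes that act on lipids, together with protein kinase C theta, none of the 6 genes was called. The arrays of CD27-CD11b+ lay wholly above those of CD27+CD11b- for all 5 that were above background, as they did for 44.3% of all genes above background. The differences of these 5 ran between 0.26 for Pik3cg and 0.58 for Prkcq. Prkcq, the diacylglycerol-activated protein kinase C theta, read 11.05 and 10.67 in CD27+CD11b-, 11.53 and 10.95 in CD27+CD11b+, and 11.42 and 11.46 in CD27-CD11b+. The 2 CD27+CD11b+ arrays of Prkcq spanned the values of CD27-CD11b+, and the outer difference was 0.58 (interval 0.07 to 1.10, limma adjusted p = 0.208). Pik3r1, the p85 alpha regulatory subunit of phosphoinositide 3-kinase, read 11.06 and 10.87 in CD27+CD11b-, 11.12 and 11.02 in CD27+CD11b+, and 11.39 and 11.51 in CD27-CD11b+. Its difference of 0.48 did not pass (interval 0.13 to 0.83, limma adjusted p = 0.138), and its 4 probe sets above background gave differences of 0.48 to 1.08, all upward. The mean of all its probe sets differed by 0.73 and passed (limma adjusted p = 0.0427). Plcg2, the phospholipase C gamma that NK cells chiefly use in mice, read 10.55 and 10.60 in CD27+CD11b-, 10.31 and 10.73 in CD27+CD11b+, and 11.25 and 10.82 in CD27-CD11b+. CD27-CD11b+ lay highest, and the difference of 0.46 had an interval of -0.01 to 0.93 (limma adjusted p = 0.269). The means of Plcg1 were under background in all 3 subsets, with 6.01 and 5.49 in CD27+CD11b-, 5.58 and 4.93 in CD27+CD11b+, and 6.63 and 6.29 in CD27-CD11b+. Neither its outer difference (limma adjusted p = 0.199) nor its second step (limma adjusted p = 0.146) passed.

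Pik3cd, the catalytic p110 delta subunit, depended on the probe set. The brightest read 10.18 and 10.39 in CD27-CD11b+, against 10.06 and 9.78 in CD27+CD11b-, a difference of 0.36. Another above background read 9.13 and 9.44 in CD27-CD11b+, against 10.20 and 9.64 in CD27+CD11b-, a difference of -0.64. Neither passed in the limma fit of all probe sets (adjusted p = 0.372 and 0.322), and the 4 probe sets above background ranged between -0.64 and 0.73. Of the 15 genes with more than 1 probe set above background, all probe sets were higher in CD27-CD11b+ for 7, all were lower for 2, Vav3 and Cblb, and the signs were mixed for 6. In a fit over all 45037 probe sets, 1 of the 73 was called in the outer comparison, that of Fcer1g (limma adjusted p = 0.042), where 0.639% of all probe sets were. The F test of that fit called 0.206% of all probe sets and the brightest one of 0 of the 31 genes.

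**Figure D3:**
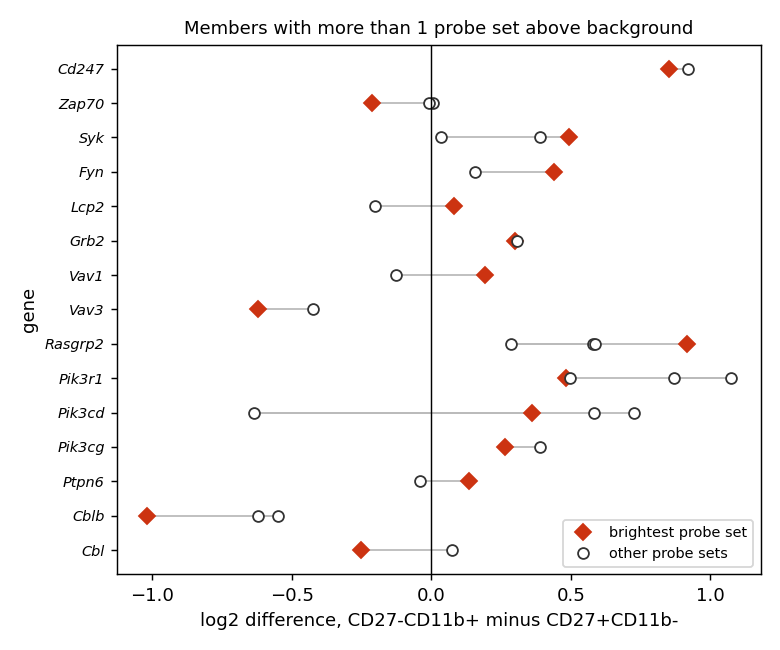
Log2 difference of CD27-CD11b+ minus CD27+CD11b- (horizontal axis) for every probe set above background of the 15 genes that have more than 1, with the brightest as a filled diamond and the others as open circles. The probe sets of Pik3cd lie on both sides of 0, between -0.64 and 0.73, while those of Pik3r1, Rasgrp2 and Cd247 lie to the right of it.

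None of the 6 brakes was called. Dok2, an adaptor that recruits the Ras inactivator RasGAP, read 9.94 and 9.39 in CD27+CD11b-, 10.99 and 10.06 in CD27+CD11b+, and 10.95 and 11.10 in CD27-CD11b+. Both later subsets lay above the first, the off array was the higher in every subset, and the CD27+CD11b+ arrays stood 0.93 apart. The outer difference was 1.36 (SE 0.31, interval 0.65 to 2.07, limma adjusted p = 0.0573), with 1.16 within the off arrays and 1.56 within the on arrays. Cblb, the ubiquitin ligase whose loss frees NK cells from inhibition in mice, read 10.74 and 10.84 in CD27+CD11b-, 10.39 and 10.72 in CD27+CD11b+, and 8.92 and 10.62 in CD27-CD11b+. A single array, CD27-CD11b+ replicate 1, carried the difference of -1.02 (interval -2.08 to 0.03, limma adjusted p = 0.279). It was -1.92 within the on arrays and -0.12 within the off arrays, and -0.17 without that array (limma adjusted p = 0.79). Without the other array of the subset it was -1.87 (limma adjusted p = 0.0195), and 2 other Cblb probe sets differed by -0.62 and -0.55. The phosphatases Ptpn6 (SHP-1) and Ptpn11 (SHP-2), through which inhibitory receptors act, differed by 0.13 and 0.17, with intervals of -0.34 to 0.61 and -0.17 to 0.51. Cbl differed by -0.25 and Dok1 by 0.23, and neither passed.

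**Figure D4:**
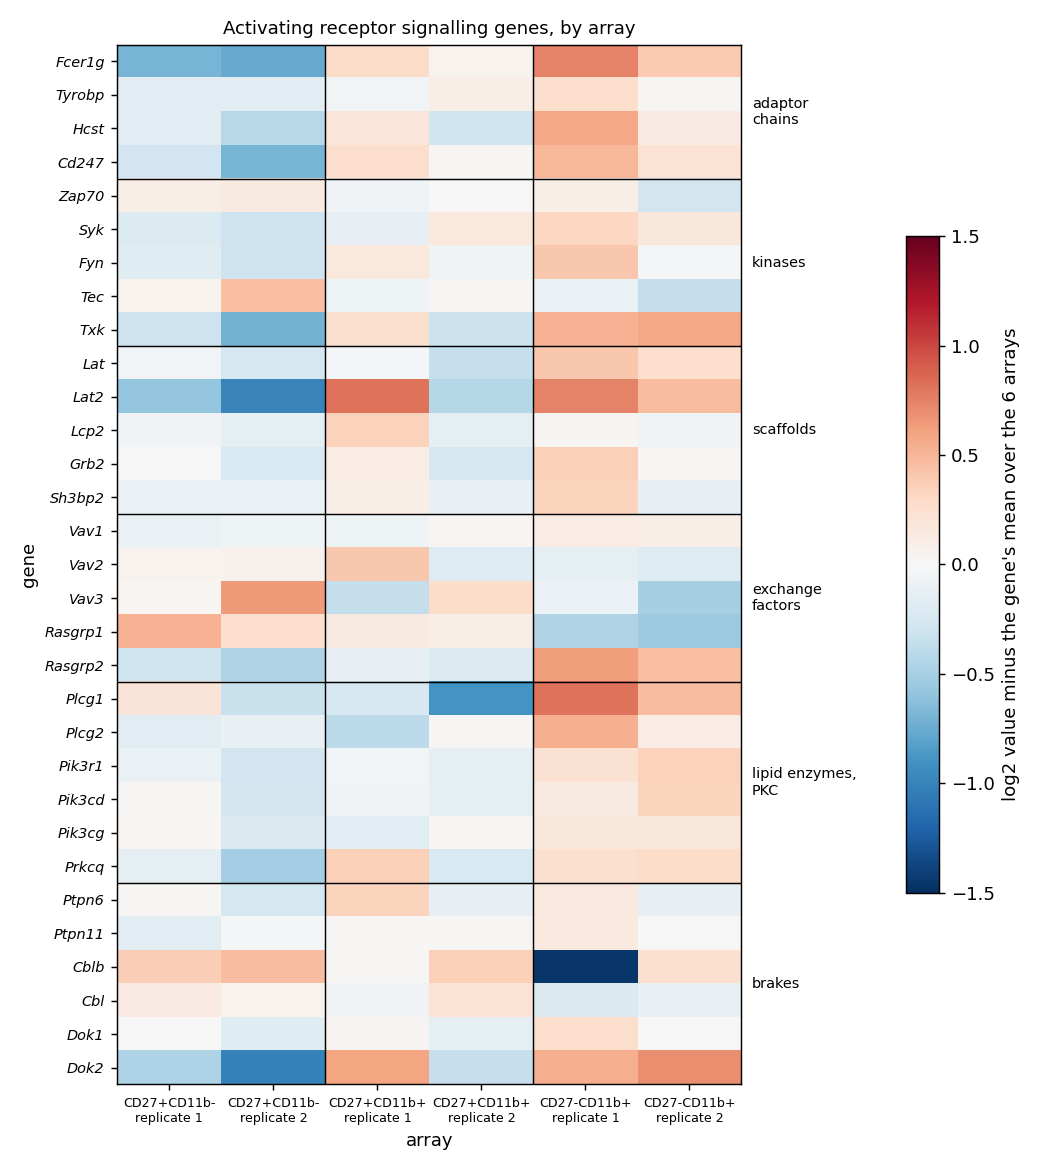
Log2 value minus the gene's own mean over the 6 arrays (colour, red above and blue below) for the 31 genes (rows, grouped by role) on each array (columns, subsets in stage order). The partner chains and the lipid enzymes are mostly blue in CD27+CD11b- and red in CD27-CD11b+, and the darkest blue cell is Cblb on CD27-CD11b+ replicate 1.

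Neither step between neighbouring subsets gave a call. In CD27+CD11b+ against CD27+CD11b-, 0 of 31 genes were called, where 0.121% of all genes were (0.033% higher and 0.0879% lower). At an unadjusted p under 0.05, 4 of 31 were higher and 0 lower, where 3.79% of all genes passed in either direction. Of the 8610 genes above background, 277 were higher and 201 lower at that threshold. The arrays of CD27+CD11b+ lay wholly above those of CD27+CD11b- for 10 of the 31 genes and wholly below for 4. Of all genes 14.7% lay above and 15.6% below, and 19.8% and 13.6% of those above background. The largest differences were 1.99-fold for Lat2, a log2 difference of 0.89 for Fcer1g (SE 0.17, limma adjusted p = 0.285) and one of 0.86 for Dok2. In CD27-CD11b+ against CD27+CD11b+, 0 of 31 were called, where 0.297% of all genes were (0.17% higher and 0.126% lower). At an unadjusted p under 0.05, 7 of 31 were higher and 1 lower, where 11.1% of all genes passed. Of the 8610 genes above background, 1184 were higher and 349 lower at that threshold. Here 11 of the 31 genes lay wholly above and 3 wholly below, where 22.8% and 17.1% of all genes did, and 35.8% and 10.4% of those above background. Rasgrp1 differed by -0.61 (limma adjusted p = 0.199) and Rasgrp2 by 0.70 (limma adjusted p = 0.142) at this second step. The median difference over the 31 genes was 0.09 at the first step and 0.20 at the second, against 0.02 and 0.14 over genes above background.

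No gene of the 31 passed the test of the second step minus the first, where 0.0055% of all genes did, and at an unadjusted p under 0.05 the share over all genes was 3.01%. By their means, 19 genes ran upward across the 3 subsets in order, or 61.3%, where 42.4% of genes above background ran upward. A downward order held for 6 genes (Zap70, Tec, Vav3, Rasgrp1, Cblb and Cbl), or 19.4%, where 16.9% of genes above background ran downward. Lcp2, Vav2 and Ptpn6 were highest and Lat, Plcg1 and Plcg2 lowest in the middle subset. These orders rest on means of 2 arrays and were not tested.

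Genes outside the list but in the same pathways were read in the same fit of all 6 arrays. They were not followed in fits with an array left out. Of 127 such genes measured, 3 were called higher and 6 lower in CD27-CD11b+ than in CD27+CD11b-, or 7.09%, against 3.39% of all genes and 6.19% of those above background. Of the 127, 108 were above background, so the share was near that of such genes. The largest of these differences were falls of 3 receptors. Cd160 read 8.37 and 8.28 in CD27-CD11b+, against 11.08 and 10.88 in CD27+CD11b- (log2 difference -2.66, SE 0.15, limma adjusted p = 0.000242). Crtam, a receptor for the nectin-like protein Cadm1, read 7.61 and 7.64 in CD27-CD11b+, against 9.52 and 9.55 in CD27+CD11b- (limma adjusted p = 0.000727). Slamf6, which signals through the SAP adaptors, read 5.46 and 5.42 in CD27-CD11b+, below background, against 7.65 and 7.27 in CD27+CD11b- (limma adjusted p = 0.00136). Cd160 also fell at the first step, by 1.19 (limma adjusted p = 0.0407), and Cd160, Crtam and Slamf6 all fell at the second (limma adjusted p = 0.0125, 0.00537 and 0.0318). Klrc2 (NKG2C) rose by 1.05 (limma adjusted p = 0.0103) but stayed below background on all 6 arrays.

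Downstream and inhibitory genes gave the other 5 calls. Ptpn12 (PTP-PEST), a tyrosine phosphatase of adhesion and receptor signalling, read 11.94 and 12.10 in CD27-CD11b+, against 10.99 and 10.85 in CD27+CD11b- (log2 difference 1.10, limma adjusted p = 0.0118). Crk, an adaptor that links Cbl to Rap1 activation, read 9.93 and 9.89 in CD27-CD11b+, against 9.08 and 9.06 in CD27+CD11b- (difference 0.84, limma adjusted p = 0.029). Pik3r6, a regulatory subunit that pairs with Pik3cg, read 6.62 and 6.50 in CD27-CD11b+, against 7.53 and 7.42 in CD27+CD11b- (difference -0.92, limma adjusted p = 0.0283). The calcium-driven factor Nfatc2 read 8.80 and 8.98 in CD27-CD11b+, against 9.87 and 9.59 in CD27+CD11b- (difference -0.84, limma adjusted p = 0.0377). Socs3, a feedback inhibitor of cytokine receptors, read 11.25 and 10.64 in CD27-CD11b+, against 11.99 and 12.26 in CD27+CD11b- (difference -1.18, limma adjusted p = 0.0405). None of the 13 Ras and MAP kinase genes or the 14 protein kinase C and NF-kB genes was called, and the median difference was 0.16 in both lists.

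The division of the arrays bears on how many calls the design yields. With it as a block in the fit, which alters only the spread around each difference, 8 of 31 genes were called between CD27-CD11b+ and CD27+CD11b-, where 8.13% of all genes were. Beside the 4 above these were Cd247, Dok2, Lat2 and Vav3, with limma adjusted p-values of 0.0307, 0.00586, 0.0278 and 0.0376. The blocked F test called 5 genes, where 4.8% of all genes were called, and the second step 1, Plcg1 (limma adjusted p = 0.0485), where 1.63% were. The first step called 0, where 0.319% of all genes were called, and so did the second step minus the first, where 0.011% were. The division was read from the values themselves, so these p-values may be too small. The on array was the higher in all 3 subsets for 6 of the 31 genes, or 19.4%, where 31.6% of genes above background were so ordered, and the lower in all 3 for 5 genes, or 16.1%, where 8.33% were.

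Markers of other cells were read beside these genes, since several of the genes are also made outside NK cells. All 9 B cell markers measured were below background on all 6 arrays. Of 10 T cell markers, 7 were below background on every array, and the mean of the list was highest in CD27+CD11b-, with 6.32 and 6.13 in CD27+CD11b-, 6.10 and 5.80 in CD27+CD11b+, and 5.44 and 5.48 in CD27-CD11b+. In the outer comparison 2 of the 10 were called lower, where 1.15% of all genes were. By their means 8 were lower and 2 higher, with a median difference of -0.29, and the differences were uneven. Cd28 read 8.57 and 8.78 in CD27-CD11b+, against 10.57 and 11.05 in CD27+CD11b-. Cd3e, below background, went the other way, with 6.44 and 6.38 against 6.05 and 6.02. Of the genes described here that T cells also make, Rasgrp1 fell, as 8 of these 10 markers did by their means, whereas Txk rose. The means of Cd247, Lat and Fyn were higher in CD27-CD11b+ than in CD27+CD11b- and those of Zap70 and Cblb lower, with none of them called in the main fit. The brightest Zap70 probe set differed by -0.21, and its others above background by 0.01 and -0.01. Cblb differed by -1.92 within the on arrays and -0.12 within the off arrays. RAG-/- mice lack mature T cells, as given above, and which cells gave these transcripts was not tested. Of 6 markers of other innate lymphoid cells measured, 4 were also called lower in CD27-CD11b+ than in CD27+CD11b-, with a median difference of -2.04. Their list averaged 8.81 and 9.32 for CD27+CD11b- arrays, 7.15 and 7.41 for CD27+CD11b+ arrays and 7.08 and 7.04 for CD27-CD11b+ arrays, and 4 of the 6 were above background on all 6 arrays. The part of such cells in the values of the signalling genes was not tested. Of 8 mast cell and basophil markers, which share Lat2 and Fcer1g with NK cells, 7 were below background on every array and Kit was not. The mean of 4 megakaryocyte and platelet markers lay between 5.31 and 6.06, below background, and 2 of the 4 were below it on every array. Of the others, Itga2b read 6.78 and 6.94 in CD27-CD11b+, against 6.32 and 6.50 in CD27+CD11b-. Gp9 went the other way, with 5.95 and 6.10 against 6.35 and 6.16. Macrophage markers were present: the mean of the list of 14 lay between 5.80 and 7.50, with 4 of its genes above background on all 6 arrays. The means of the neutrophil and dendritic cell lists followed the same division. The 7 neutrophil genes averaged 7.60, 7.83 and 7.69 on the on arrays and 6.18, 6.85 and 6.93 on the off arrays in stage order, and the 8 dendritic cell genes 7.87, 7.91 and 7.99 on the on arrays and 7.33, 7.45 and 7.32 on the off arrays. Not all dendritic cell genes did so. H2-Aa read 10.82, 10.85 and 10.72 on the on arrays and 9.03, 9.19 and 9.14 on the off arrays. Itgax read 11.11, 11.70 and 11.27 against 11.17, 11.67 and 11.17, and Siglech, below background, 5.52, 5.39 and 5.49 against 5.72, 5.76 and 5.76. The part of these myeloid cells in the values of Fcer1g, Tyrobp, Syk, Plcg2 and Lat2 was not tested. Beside the values above for Fcer1g and Lat2, the outer difference within the off and the on arrays was 0.19 and 0.42 for Tyrobp, 0.37 and 0.62 for Syk, and 0.27 and 0.65 for Plcg2. The median outer differences within the off and the on arrays were 0.83 and 0.21 for the macrophage list, and 1.07 and 0.16 for the neutrophil list.

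Sequences before the starts of called genes are shown because these are the genes whose levels differed between the outer subsets. RefSeq windows of the 250 bases before a gene's start (GRCm38.p6) were found for 27 of the 31 genes, 40 windows in all, because some genes have several starts. Short motifs of 3 families of factors active in NK cells were searched on both strands.

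The windows of the 4 called genes are these, with the strand after the position and, for Txk and Rasgrp2, 2 starts each.
Fcer1g, chr1:171234350-171234599, minus strand: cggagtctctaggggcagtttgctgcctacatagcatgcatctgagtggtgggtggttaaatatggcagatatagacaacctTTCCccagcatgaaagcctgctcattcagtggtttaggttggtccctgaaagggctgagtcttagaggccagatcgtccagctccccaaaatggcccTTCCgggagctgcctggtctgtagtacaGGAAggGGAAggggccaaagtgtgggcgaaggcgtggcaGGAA
Txk, first start, chr5:72752778-72753027, minus strand: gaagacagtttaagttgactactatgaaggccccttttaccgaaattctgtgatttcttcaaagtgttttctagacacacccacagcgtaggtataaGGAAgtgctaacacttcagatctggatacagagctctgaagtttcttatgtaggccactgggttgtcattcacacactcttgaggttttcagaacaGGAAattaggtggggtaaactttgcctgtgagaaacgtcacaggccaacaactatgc
Txk, second start, chr5:72736603-72736852, minus strand: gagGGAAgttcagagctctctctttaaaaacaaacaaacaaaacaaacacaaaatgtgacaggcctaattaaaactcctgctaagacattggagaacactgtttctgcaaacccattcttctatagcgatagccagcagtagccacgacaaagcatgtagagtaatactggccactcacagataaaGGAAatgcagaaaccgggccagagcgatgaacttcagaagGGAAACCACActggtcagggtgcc
Rasgrp2, first start, chr19:6399625-6399874, plus strand: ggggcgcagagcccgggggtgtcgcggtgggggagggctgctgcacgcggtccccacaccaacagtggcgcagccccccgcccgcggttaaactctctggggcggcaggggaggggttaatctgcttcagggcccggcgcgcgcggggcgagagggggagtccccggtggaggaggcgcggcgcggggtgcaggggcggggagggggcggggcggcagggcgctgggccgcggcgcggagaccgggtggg
Rasgrp2, second start, chr19:6401455-6401704, plus strand: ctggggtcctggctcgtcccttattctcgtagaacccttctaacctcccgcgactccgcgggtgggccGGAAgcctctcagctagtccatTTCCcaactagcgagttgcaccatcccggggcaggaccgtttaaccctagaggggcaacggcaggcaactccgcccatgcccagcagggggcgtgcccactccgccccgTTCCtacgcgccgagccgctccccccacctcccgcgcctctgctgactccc
Rasgrp1, chr2:117342878-117343127, minus strand: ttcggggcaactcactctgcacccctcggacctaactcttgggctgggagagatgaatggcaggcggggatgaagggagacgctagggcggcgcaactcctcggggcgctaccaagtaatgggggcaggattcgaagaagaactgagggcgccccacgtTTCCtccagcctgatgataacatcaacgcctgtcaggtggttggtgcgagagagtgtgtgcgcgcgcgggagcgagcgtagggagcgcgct

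Capitals mark matches to GGAA, the core bound by ETS factors, to TGTGGT, bound by RUNX factors, or to AGGTGTGA, a T-box site of the kind T-bet and Eomes bind, or to their reverse complements, and the sequences run 5′ to 3′ on the gene's strand. GGAA was found in 33 of the 40 windows, or 82.5%, against 93.4% of all 32851 RefSeq windows of this length. TGTGGT was found in 2 windows, or 5%, 1 of Zap70 and 1 of Txk, against 14% of all windows, and AGGTGTGA in 0, against 1.12%. In the second Txk window a GGAA lies directly beside the reverse complement of the RUNX letters, without overlap. A match describes letters only, and no binding was measured.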

How the data were processed

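RNA of sorted NK cell subsets was hybridised to Affymetrix arrays, 2 per subset. The deposited value table holds log2 values. Per the submitters' processing notes the authors used RMA, of a version not given in the sources used here. This method gives all arrays nearly the same distribution and shrinks the differences of dim genes. Array medians lay between 5.26 and 5.35. Precision is limited by the number of arrays.

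Of 45101 probe sets, 64 controls were left out. Names came from the array annotation: 34945 probe sets had 1 symbol, 932 several and 9160 none, and 34741 of the first matched the RefSeq gene table. Each of 18193 genes was read from its brightest probe set, and 8610 were above background in at least 1 subset. Background was the 95th percentile of 37 measured genes, of 40 listed, of other tissues. Samples were grouped by title. Limma 3.58.1 (R 4.3.3) fitted 1 mean per subset over all 6 arrays (3 residual and 4.93 prior degrees of freedom), with Benjamini-Hochberg adjustment over all genes and a threshold of 0.05. The code was tested on simulated data. All 31 measured genes are given. Full values cover called genes, the partner chains, the main kinases and scaffolds, and the 10 largest outer differences above background. Of the other pathway lists, only called genes are named, and 1 list is not reported here. The genes, lists and alternatives were chosen with earlier results of these data known. The array files themselves were not used here.

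Same-numbered arrays deviated together for 1 of 3 pairs of subsets only: the correlations of their deviations over 8610 genes were 0.72 between CD27+CD11b- and CD27+CD11b+, -0.26 between CD27+CD11b- and CD27-CD11b+, and -0.12 between CD27+CD11b+ and CD27-CD11b+. The replicate numbers were therefore not taken as pairs. The 16 alternatives covered each array left out, both blocks, probe set choice, background filter, scale, normalization, variance model and arrays in the fit.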

Additional observations from a re-analysis of the deposited data

How the results depend on the processing

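With 2 arrays per subset, 1 array decides several calls. Of 31 genes, 4 were called between CD27-CD11b+ and CD27+CD11b-, and leaving out 1 array at a time gave between 0 and 6. The count was 0 without CD27-CD11b+ replicate 1, the array whose sort note conflicts with its title, 1 without either CD27+CD11b- array (Fcer1g) and 2 without CD27-CD11b+ replicate 2 (Cblb and Fcer1g). It was 8 with the array division as a block, 1 in a single fit of all probe sets (Fcer1g), and between 3 and 6 under the other alternatives without a replicate block. Fcer1g was called in 15 of 16 alternatives, Rasgrp1 and Rasgrp2 in 10 and Txk in 9. In the outer comparison, leaving out either CD27+CD11b+ array and fitting only the 4 arrays compared are identical fits, so each tally counts that fit repeatedly. None of the 31 genes turned its direction where it had been called. The blocks, the background filter, the fit of all probe sets and the variance model leave a difference unchanged, so no direction could turn there. The F test called 1 gene, between 0 and 3 with 1 array left out, 5 with the division as a block, 0 with all probe sets fitted or with 32 added to the linear values, and 2 with array medians set equal or with a trended, robust variance. At the second step 0 genes were called, and 1, Plcg1, with the division as a block. At the first step, and for the second step minus the first, the count was 0 under every alternative run. Of the 73 probe sets, 1 was called, between 0 and 2 with 1 array left out, and 0 with the division as a block, with 32 added, or after a repeated quantile normalization.

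Over all genes the counts moved as well. In CD27+CD11b+ against CD27+CD11b-, 22 genes were called, and between 4 and 30 with 1 array left out, 58 with the division as a block, 11 with the mean of all probe sets, 0 with all probe sets fitted or 32 added, and 12 with only the 4 arrays compared. In CD27-CD11b+ against CD27+CD11b+, 54 were called, and between 6 and 53 with 1 array left out, 296 with the division as a block, 18 with all probe sets fitted, 11 with 32 added and 101 with a trended, robust variance. In CD27-CD11b+ against CD27+CD11b-, 617 were called, and between 84 and 635 with 1 array left out, 1480 with the division as a block, 288 with all probe sets fitted and 367 with 32 added. The cause of these shifts was not tested.

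With the replicate number as a block, 7 genes of the 31 were called in the outer comparison, where 760 of all 18193 genes were. At the second step 1 was called (Plcg1), where 58 of all genes were. The F test called 2 of the 31, and its count over all genes was not taken for this block. These arrays share only a number, not a known pairing.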
